A study of Mus musculus with 12 samples.

Results

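The 10 genes followed here encode AP-1 subunits and other products of the immediate early response: *Fos*, *Fosb*, *Fosl2*, *Jun*, *Junb*, *Jund*, *Egr1*, *Egr2*, *Ier2* and *Nr4a1*. Every row of the count table that carries one of these symbols was taken. All 10 were found among its 54532 genes, and all 10 were among the 14894 genes tested, those with a level above 0.5 CPM (counts scaled to a common library size) in 2 or more libraries of the 12. The cells came from the bone marrow of wild-type (WT) C57BL/6 mice, which by the methods of the study were young adult females. They were grown for 5 days with GM-CSF and IL-6, cytokines that drive immunosuppressive myeloid cells, in vehicle (labelled 0.1DMSO), 10 µM indole-3-propionic acid (IPA) or 50 µM IPA, with 4 libraries per group. IPA is a tryptophan metabolite made by gut bacteria. At the higher dose the study noted lower viability, which counts do not measure. The cultures mix cell types, so that fewer cells of a type and less RNA per cell cannot be told apart. The labels do not say whether the 4 libraries of a group came from separate mice or cultures, so p-values measure only the spread between these samples, which may be technical.

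AP-1 is a dimer of bZIP proteins, in which a JUN protein pairs with another JUN, a FOS or an ATF partner and binds DNA. FOS itself cannot form a stable dimer with another FOS and needs a JUN partner. Immediate early genes are transcribed within minutes of a growth factor, cytokine or stress signal without new protein synthesis, mainly through MAP kinases acting on SRF with its ELK partners and on CREB, and their mRNAs are short-lived. EGR1 and EGR2 are zinc-finger factors that accompany differentiation of monocytes and macrophages, and NR4A1 is an orphan nuclear receptor used by patrolling monocytes. The cells were harvested after 5 days in culture, and the time since their last stimulus, such as a change of medium or handling, was not tested.

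Promoter windows are shown for *Fos*, the founding member, and for *Egr2* and *Nr4a1*, which passed the test in at least 1 comparison and hold matches; *Junb* passed too, and its window holds none. Each window is the 250 bases before a RefSeq transcription start on GRCm38.p6, all on the plus strand, and capitals mark every match to the motifs searched on both strands. The *Fos* window lies at chr12:85473640-85473889, that of *Egr2* at chr10:67537619-67537868 (1 of 5 listed starts) and that of *Nr4a1* at chr15:101266596-101266845.
Fos: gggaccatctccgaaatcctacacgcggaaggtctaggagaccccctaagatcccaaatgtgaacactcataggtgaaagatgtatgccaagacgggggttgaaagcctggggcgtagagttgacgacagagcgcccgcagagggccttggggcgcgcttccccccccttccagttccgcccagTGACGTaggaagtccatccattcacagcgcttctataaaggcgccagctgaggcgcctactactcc
Egr2: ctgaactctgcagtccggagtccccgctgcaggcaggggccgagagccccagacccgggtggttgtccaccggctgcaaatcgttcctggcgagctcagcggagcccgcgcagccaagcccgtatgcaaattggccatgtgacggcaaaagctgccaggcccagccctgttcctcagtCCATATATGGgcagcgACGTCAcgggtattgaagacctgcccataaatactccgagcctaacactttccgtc
Nr4a1: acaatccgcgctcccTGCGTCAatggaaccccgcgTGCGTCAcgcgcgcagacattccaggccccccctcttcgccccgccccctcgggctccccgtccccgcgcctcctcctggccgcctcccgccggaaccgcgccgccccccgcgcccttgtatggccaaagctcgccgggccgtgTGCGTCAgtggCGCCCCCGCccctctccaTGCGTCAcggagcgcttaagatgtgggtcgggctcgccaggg
The motifs were the cAMP response element TGACGTCA, its core TGACGT (which lies within it), the variant TGCGTCA, the AP-1 element TGANTCA, the EGR motif GCGNGGGCG and the CArG box bound by SRF.

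*Fos* held 1 match, the core 66 to 61 bases before the start. In *Egr2*, a CArG box stood 72 to 63 bases before the start, followed by the core on the minus strand at 56 to 51. In *Nr4a1*, TGCGTCA occurred 4 times, the nearest to the start at 42 to 36 bases, and the EGR motif once, on the minus strand at 60 to 52. None of the 3 windows held the full cAMP response element or TGANTCA. Among 32851 promoter windows of 250 bases, 6.47% held the core, 1.75% TGCGTCA, 4.70% the EGR motif, 1.47% a CArG box, 1.55% the full element and 6.75% TGANTCA. A match describes letters in the window and not binding. A site farther than 250 bases from the start, or one with other letters, would be missed, so 0 matches does not mean no site. The table held an entry for 8 of the 10 genes, without *Egr1* and *Ier2*. The windows of *Jun*, *Junb* and *Jund* held 0 matches to any of the motifs, as did 1 of the 5 *Egr2* windows. *Fosb* held TGCGTCA and the EGR motif once each, and *Fosl2* the EGR motif once. The RefSeq start used for *Jund* lies 1210 bases from the nearest annotated GENCODE transcript start, and that for *Fosl2* 299 bases, while for the 3 printed windows the distance is 0. The bases after the start were found in GENCODE transcripts for 9 of the 12 windows of the members.

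The libraries held 20451312 to 28038612 counts, and the 10 genes took 0.104% to 0.128% of them. Values below are CPM after TMM normalization over the 12 libraries, which corrects for library composition. Fold changes are log2 values from edgeR's quasi-likelihood test on the 8 libraries of a pair of groups, with Benjamini-Hochberg adjustment over all 14894 genes and a threshold of 0.05. The 3 comparisons share libraries and are not independent of each other.

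No member passed the test at 10 µM, while *Egr1* and *Egr2* rose at 50 µM. At 10 µM against vehicle, 0 of the 10 passed the threshold, against 0.410% of all genes (61 of 14894). DESeq2 and limma-voom also called 0, and 4 genes (*Fos*, *Jun*, *Egr1* and *Ier2*) had an unadjusted p under 0.05. At 50 µM against vehicle, 2 of 10 passed, both higher, against 13.5% of all genes, or 7.00% counted in the higher direction. At 50 µM against 10 µM, 4 of 10 passed against 15.4% of all genes. *Egr1*, *Egr2* and *Nr4a1* were higher (7.52% of all genes were) and *Junb* was lower (7.85%).

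The members did not move as a block. Their median log2 fold change was -0.02 at 10 µM, 0.08 at 50 µM and 0.10 for 50 µM against 10 µM, beside -0.01, 0.01 and 0.01 over all genes tested. Of the 10, 5 were positive at 10 µM, 6 at 50 µM and 7 for 50 µM against 10 µM. In the test of any difference among the 3 groups, only *Egr1* and *Egr2* passed (adjusted p = 0.000596 and 0.000512, edgeR), against 16.4% of all genes.

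**Figure D1:**
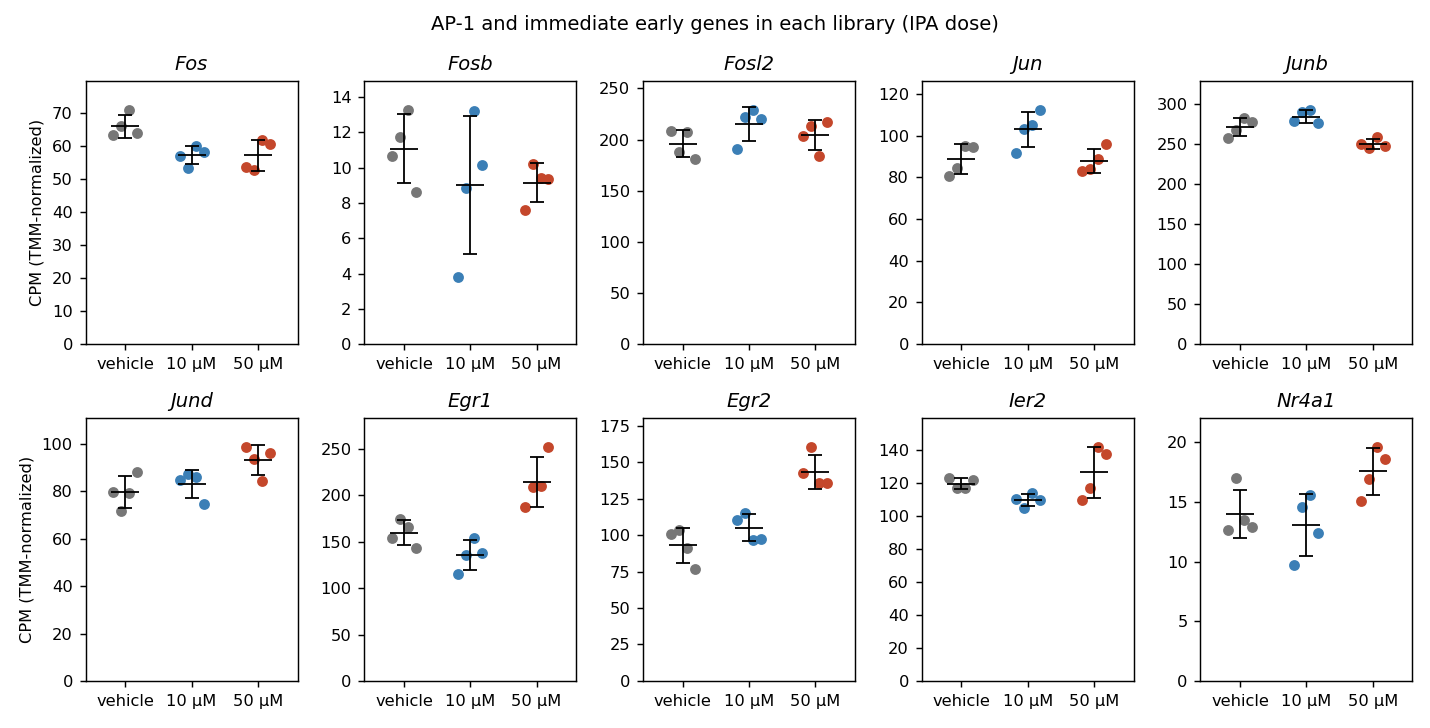
TMM-normalized CPM of each gene (vertical axes, from 0) in each of the 4 libraries of vehicle, 10 µM and 50 µM IPA (points, left to right replicates 1 to 4), with mean ± SD (black). The 50 µM points of *Egr1* and *Egr2* lie above all other points, and those of *Junb* lie below every 10 µM point.

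*Egr2* encodes a zinc-finger factor of myeloid differentiation. In vehicle it stood at 101, 103, 91.3 and 77.0 CPM, at 10 µM at 110, 116, 97.1 and 97.5 CPM, and at 50 µM at 143, 161, 136 and 136 CPM. Every 50 µM library lay above all 8 others, while the vehicle and 10 µM libraries overlapped. The mean went from 93.2 ± 12.0 CPM in vehicle to 105 ± 9.26 at 10 µM and 144 ± 11.7 at 50 µM (SD, n = 4). The rise at 50 µM over vehicle was 0.63 on the log2 scale (SE 0.10, adjusted p = 0.000830, edgeR), or 1.55-fold, and over 10 µM it was 0.46 (SE 0.08, adjusted p = 0.000865, edgeR). At 10 µM the difference from vehicle was 0.17 (SE 0.10, adjusted p = 0.698, edgeR), with a 95% interval of -0.04 to 0.39. Its window above carries the CArG box and the core.

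*Egr1*, an early growth response gene of the same family, lies at chr18:34859823-34864984 on the plus strand (GRCm38). Its levels were 154, 175, 166 and 144 CPM in vehicle, 115, 136, 155 and 138 CPM at 10 µM, and 188, 209, 210 and 252 CPM at 50 µM. The 50 µM libraries were again above all others, and the lowest of the 12 was replicate 1 at 10 µM. The group means were 160 ± 13.5, 136 ± 16.3 and 215 ± 26.9 CPM (SD, n = 4), so that the 10 µM mean was the lowest of the 3. *Egr1* rose by 0.44 over vehicle (SE 0.09, adjusted p = 0.00776, edgeR) and by 0.66 over 10 µM (SE 0.10, adjusted p = 0.000210, edgeR). The 10 µM difference from vehicle was -0.23 (SE 0.09, 95% interval -0.44 to -0.03), which did not pass (adjusted p = 0.469, edgeR).

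The ratio of *Egr1* to *Egr2* overlapped between every pair of groups and was not tested. *Egr1* had 1.53 to 1.86 counts for each count of *Egr2* in vehicle, 1.04 to 1.59 at 10 µM and 1.30 to 1.86 at 50 µM. Both calls at 50 µM held when any 1 library was left out, with adjusted p (edgeR) at most 0.0315 for *Egr1* and 0.00577 for *Egr2* against vehicle.

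*Nr4a1* was low, with 269 to 463 counts per library. Its levels were 12.6, 17.0, 13.5 and 12.9 CPM in vehicle, 9.74, 14.6, 15.6 and 12.4 CPM at 10 µM, and 15.1, 17.0, 19.6 and 18.6 CPM at 50 µM. The groups overlapped at their edges, since vehicle replicate 2 and 10 µM replicate 3 reached the lower 50 µM libraries. *Nr4a1* was higher at 50 µM than at 10 µM by 0.43 (SE 0.14, adjusted p = 0.0446, edgeR). The call was lost in 6 of 8 fits that left out 1 library, with adjusted p up to 0.113 (without 50 µM replicate 4), and the fold change was 0.31 without 10 µM replicate 1. Against vehicle the 50 µM difference was 0.34 (SE 0.12, adjusted p = 0.0848, edgeR). It passed in 1 of 8 fits that left out 1 library, that without vehicle replicate 2 (adjusted p = 0.0266, edgeR). In the other such fits the adjusted p reached 0.222 (edgeR).

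*Ier2*, a small nuclear protein of the immediate early response, stood at 123, 117, 117 and 122 CPM in vehicle, 110, 105, 114 and 110 CPM at 10 µM, and 110, 117, 142 and 137 CPM at 50 µM. All 10 µM libraries were below all vehicle libraries, and the 50 µM libraries split into a lower and an upper pair. The 10 µM difference from vehicle was -0.12 (SE 0.06, adjusted p = 0.562, edgeR). For 50 µM it was 0.09 against vehicle (SE 0.09, adjusted p = 0.557, edgeR) and 0.21 against 10 µM (SE 0.08, adjusted p = 0.0942, edgeR). The last passed in 1 of 8 fits that left out 1 library, that without 50 µM replicate 1 (adjusted p = 0.0312, edgeR). In the other such fits the adjusted p reached 0.246 (edgeR).

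**Figure D2:**
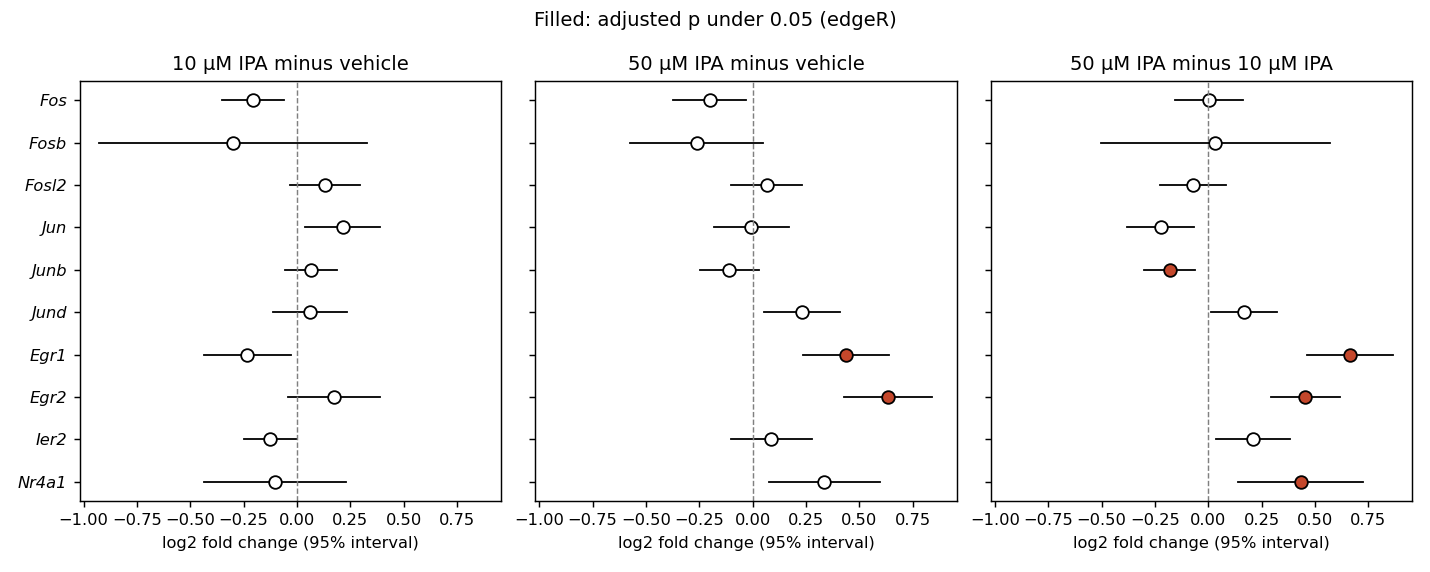
Log2 fold change of each gene (horizontal axes) in the 3 comparisons, with 95% intervals from edgeR; filled points had an adjusted p under 0.05. No point is filled at 10 µM against vehicle, 2 are at 50 µM against vehicle, and 4 are at 50 µM against 10 µM.

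Among the FOS proteins, *Fos* encodes the short-lived classical partner of JUN. It stood at 63.2, 66.2, 70.8 and 63.8 CPM in vehicle, 57.0, 53.5, 59.9 and 58.2 CPM at 10 µM, and 53.8, 52.6, 61.7 and 60.5 CPM at 50 µM. Every library with IPA was below every vehicle library, and the IPA doses overlapped. *Fos* and *Ier2* were the 2 members whose 10 µM and vehicle libraries did not overlap (6.13% of all genes did not), and *Fos*, *Egr1* and *Egr2* were the 3 at 50 µM against vehicle (20.0%). The differences in *Fos* did not pass: -0.21 at 10 µM (SE 0.07, adjusted p = 0.301, edgeR) and -0.20 at 50 µM (SE 0.08, adjusted p = 0.117, edgeR). Their 95% intervals reached from -0.35 to -0.06 and from -0.37 to -0.03. Between the IPA doses the difference was 0.00 (SE 0.07, adjusted p = 0.990, edgeR), and its sign changed with the fit.

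*Fosb*, whose protein resembles FOS, was the lowest of the set, with 105 to 351 counts per library. It stood at 10.7, 11.8, 13.3 and 8.62 CPM in vehicle, 3.80, 8.85, 13.2 and 10.2 CPM at 10 µM, and 7.62, 10.2, 9.41 and 9.36 CPM at 50 µM. The 10 µM group had the widest spread of any member (SD 43.5% of the mean), with replicate 1 far below the rest. *Fosb* differed from vehicle by -0.30 at 10 µM (SE 0.29, adjusted p = 0.863, edgeR) and by -0.26 at 50 µM (SE 0.14, adjusted p = 0.262, edgeR). Without 10 µM replicate 1 the first was -0.04.

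*Fosl2*, encoding FRA2, was the FOS gene with the most reads. Its levels were 208, 188, 207 and 181 CPM in vehicle, 190, 222, 229 and 220 CPM at 10 µM, and 203, 213, 184 and 217 CPM at 50 µM. The 3 groups overlapped. The differences from vehicle were 0.13 at 10 µM (SE 0.07, adjusted p = 0.690, edgeR) and 0.07 at 50 µM (SE 0.08, adjusted p = 0.630, edgeR), and the 50 µM difference from 10 µM was -0.07.

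Among the JUN proteins, *Junb*, which often restrains JUN activity and is needed in myeloid cells, had the most reads of the 10 genes. It stood at 258, 267, 283 and 277 CPM in vehicle, 279, 290, 292 and 277 CPM at 10 µM, and 250, 245, 259 and 248 CPM at 50 µM. The 50 µM libraries were below every 10 µM library and touched the lowest vehicle library. *Egr1*, *Egr2* and *Junb* were the 3 members that did not overlap between the IPA doses (20.3% of all genes did not). *Junb* fell by 0.18 on the log2 scale from 10 µM to 50 µM (SE 0.06, adjusted p = 0.0389, edgeR), or to 0.882 of the 10 µM level. The call was lost in 6 of 8 fits that left out 1 library (adjusted p up to 0.115, without 10 µM replicate 3), although the fold change stayed between -0.19 and -0.16. Against vehicle the 50 µM difference was -0.11 (SE 0.06, adjusted p = 0.291, edgeR).

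*Jun* encodes a strong transcriptional activator. Its levels were 80.8, 84.4, 95.0 and 94.6 CPM in vehicle, 91.6, 103, 105 and 112 CPM at 10 µM, and 83.1, 84.0, 88.6 and 95.8 CPM at 50 µM. The 10 µM group was the highest, but its replicate 1 lay within the other 2 groups. The 10 µM difference was 0.21 from vehicle (SE 0.08, adjusted p = 0.428, edgeR), and 50 µM differed from 10 µM by -0.22 (SE 0.07, adjusted p = 0.0547, edgeR). The second passed in 3 of 7 alternatives that kept all libraries, DESeq2 among them (adjusted p = 0.0326). Without 1 library it passed in 2 of 8 fits. There the adjusted p (edgeR) ran from 0.0178, without 10 µM replicate 1, up to 0.147. Between 50 µM and vehicle the difference was -0.01 (95% interval -0.18 to 0.17).

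*Jund*, the JUN gene least dependent on stimulation, stood at 79.9, 71.7, 79.3 and 88.3 CPM in vehicle, 84.9, 87.4, 85.8 and 74.6 CPM at 10 µM, and 98.7, 93.5, 84.6 and 96.1 CPM at 50 µM. Of the 50 µM libraries, replicates 1, 2 and 4 lay above all others and replicate 3 lay among them. *Jund* differed from vehicle by 0.06 at 10 µM (SE 0.08, adjusted p = 0.910, edgeR) and by 0.23 at 50 µM (SE 0.08, adjusted p = 0.0835, edgeR). The second passed in 1 of 8 fits that left out 1 library, that without vehicle replicate 4 (adjusted p = 0.0162, edgeR). In the other such fits the adjusted p reached 0.188 (edgeR).

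On GRCm38, *Fosb* lies at chr7:19302696-19310051 (minus strand), *Fosl2* at chr5:32135801-32157842 (plus), *Jun* at chr4:95049034-95052222 (minus), *Junb* at chr8:84974484-84978718 (minus), *Jund* at chr8:70698949-70700616 (plus) and *Ier2* at chr8:84661331-84662852 (minus). Exons of 3 members overlap a gene on the opposite strand, and the strand setting of the counting is not given in the sources used here. *Jun* overlaps the antisense gene *Junos* (103 to 340 counts per library), *Junb* overlaps *Prdx2* (2179 to 3426 counts) and *Jund* overlaps *Gm11175* (0 counts). If strand was not used, reads of *Jun* and *Junos*, or of *Junb* and *Prdx2*, cannot be told apart where they overlap.

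**Figure D3:**
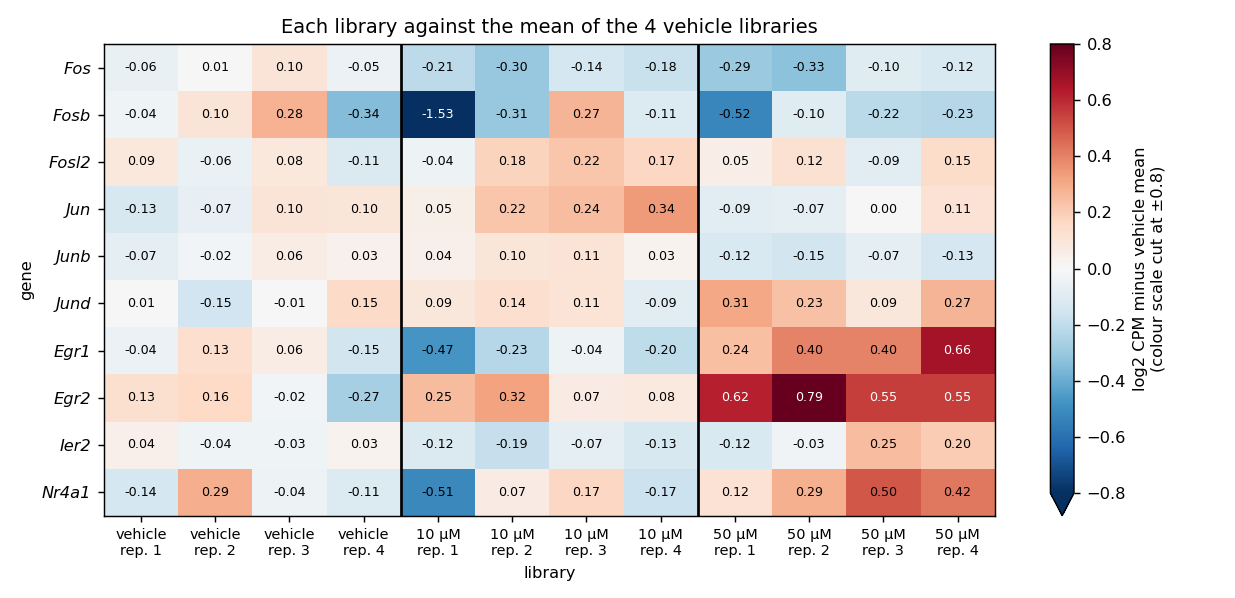
Log2 CPM of each gene (rows) in each of the 12 libraries (columns) minus its mean over the 4 vehicle libraries; red is higher and blue lower, and the colour scale stops at 0.8 either way. The *Fos* row is below 0 in all 8 IPA libraries, the *Egr1* and *Egr2* rows are above 0 in all 4 libraries at 50 µM, and *Fosb* in 10 µM replicate 1 stands at -1.53.

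Single libraries did not set all the extremes. The lowest of the 12 values fell in 10 µM replicate 1 for 3 genes (*Fosb*, *Egr1* and *Nr4a1*), and no other library held more than 2 of the lowest or more than 2 of the highest values. By group means, 50 µM was highest for 5 genes (*Jund*, *Egr1*, *Egr2*, *Ier2* and *Nr4a1*), 10 µM for 3 (*Fosl2*, *Jun* and *Junb*) and vehicle for 2 (*Fos* and *Fosb*). Many of these means differed by less than the spread between replicates, as given above.

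Levels can be compared between genes only per length of exon (CPM per kilobase, kb). The length used was that of all annotated exons of a gene merged, such as 2352 bases for *Fos* and 9680 for *Fosl2*. The transcripts in these cells may be shorter, so the order of genes depends on this choice, and other lengths were not tried. In vehicle *Junb* led with 118 ± 4.79 CPM per kb (SD, n = 4), followed by *Ier2* at 78.5 ± 2.16, *Jund* at 47.8 ± 4.07 and *Egr1* at 35.6 ± 3.00. *Fos* (28.1), *Jun* (27.8) and *Egr2* (27.4 CPM per kb) did not differ beyond their ranges, and *Fosl2* stood at 20.3. *Nr4a1* (3.99) and *Fosb* (1.77 CPM per kb) closed the order. *Junb*, *Ier2* and *Jund* held the top places, and *Fosl2*, *Nr4a1* and *Fosb* the bottom places, in the same order at both IPA doses. At 50 µM, *Egr1* at 47.9 ± 6.01 CPM per kb overlapped *Jund* at 55.9 ± 3.68 and *Egr2* at 42.3 ± 3.46.

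**Figure D4:**
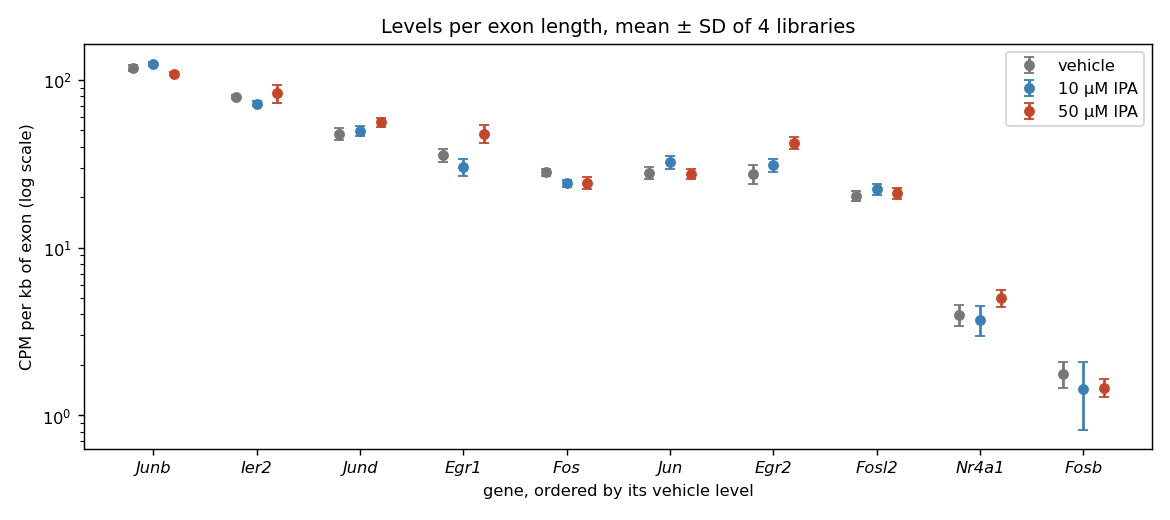
CPM per kb of exon (log scale) for each gene, ordered by its vehicle level, as mean ± SD of the 4 libraries of vehicle, 10 µM and 50 µM IPA. *Junb* is highest and *Fosb* lowest in all 3 groups, and *Egr1* and *Egr2* move up at 50 µM.

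The makeup of each family followed from these levels, and so it depends on the same merged exon lengths. *Junb* gave 61.0% ± 1.38 of the summed JUN family level per kb in vehicle, 60.1% ± 0.23 at 10 µM and 56.6% ± 1.60 at 50 µM (SD, n = 4). The *Jund* share was 24.7% ± 1.47, 24.2% ± 1.31 and 29.1% ± 1.73. Across vehicle and 50 µM, neither range overlapped: 59.4% to 62.6% against 55.1% to 58.9% for *Junb*, and 23.1% to 26.0% against 26.6% to 30.5% for *Jund*. At 10 µM both overlapped vehicle, at 59.8% to 60.4% for *Junb* and 22.3% to 25.3% for *Jund*. In the FOS family, with *Fosl1* included, *Fos* gave 52.7% ± 1.04 in vehicle, 47.1% ± 2.54 at 10 µM and 49.6% ± 3.60 at 50 µM. *Fosl2* gave 38.0% ± 1.94, 43.0% ± 1.89 and 43.1% ± 2.53. Vehicle and 10 µM did not overlap for either, at 51.1% to 53.5% against 45.3% to 50.8% for *Fos* and 36.7% to 40.9% against 41.2% to 45.6% for *Fosl2*. At 50 µM both overlapped vehicle, at 45.9% to 54.4% for *Fos* and 39.4% to 45.2% for *Fosl2*. In the EGR family, with *Egr3* included, *Egr1* gave 49.1% ± 0.912, 42.2% ± 3.84 and 46.6% ± 3.86, and *Egr2* gave 37.8% ± 2.79, 43.3% ± 4.30 and 41.3% ± 3.58. The *Egr1* share at 10 µM, 38.2% to 46.5%, did not overlap its vehicle range of 47.7% to 49.7%, and the other shares of *Egr1* and *Egr2* overlapped theirs. The shares of a family sum to a whole, so they are not separate measurements, and they were not tested. For scale, the levels of 6.13% of all genes did not overlap between 10 µM and vehicle, and of 20.0% between 50 µM and vehicle.

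Among the other bZIP proteins of or near AP-1, *Batf3* and *Atf3* rose at 50 µM. Of 11 tested, 0 passed at 10 µM in edgeR (2 at an unadjusted p under 0.05, *Atf3* and *Batf3*), 2 rose at 50 µM, and 2 were higher and 1 lower at 50 µM than at 10 µM. Over all genes 0.410%, 13.5% and 15.4% passed in these comparisons, in that order. *Batf3*, a JUN partner needed for a class of dendritic cells, stood at 6.42 ± 0.731, 10.1 ± 1.05 and 14.7 ± 1.08 CPM in vehicle, 10 µM and 50 µM (SD, n = 4). It rose by 1.20 at 50 µM over vehicle (SE 0.12, adjusted p = 3.55e-05, edgeR), and its 10 µM difference of 0.65 just missed the threshold (adjusted p = 0.0550, edgeR). *Atf3*, a stress-induced factor, rose by 0.40 at 50 µM (adjusted p = 0.0179, edgeR) and had its highest mean at 10 µM, where a difference of 0.56 did not pass (adjusted p = 0.0712, edgeR). *Jdp2*, a repressor that binds AP-1 sites, was higher at 50 µM than at 10 µM by 0.28, and *Fosl1*, encoding FRA1, fell by 0.84 (adjusted p = 0.0227 and 0.00822, edgeR). Without 1 library, *Batf3* held in all 8 fits at 50 µM against vehicle and *Atf3* in 6 (adjusted p at most 0.0661, edgeR), and between the doses *Fosl1* held in 8 and *Jdp2* in 4 (at most 0.0817). The medians of the list were -0.03, 0.02 and -0.04 in the 3 comparisons.

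Among relatives of the EGR and NR4A factors, 2 rose at 50 µM. Of 5 tested, *Egr3* and *Nab2* passed at 50 µM against vehicle, both higher, and 0 passed in edgeR in the other 2 comparisons, with 1 at an unadjusted p under 0.05 in each (*Egr4* had no read in any library). Over all genes 13.5% passed at 50 µM against vehicle, and 7.00% passed and were higher. The list's medians were 0.21 at 10 µM, 0.38 at 50 µM and 0.04 for 50 µM against 10 µM. *Egr3* went from 41.6 ± 5.46 CPM in vehicle to 45.9 ± 5.62 at 10 µM and 54.8 ± 3.77 at 50 µM (SD, n = 4), a rise of 0.41 at 50 µM (SE 0.10, adjusted p = 0.0155, edgeR). *Nab2*, a corepressor that binds EGR proteins and is itself an EGR target, rose by 0.30 (SE 0.09, adjusted p = 0.0384, edgeR). *Egr3* kept its call in 7 of 8 fits without 1 library and *Nab2* in 3, with adjusted p (edgeR) of at most 0.0504 without 50 µM replicate 3 and 0.115 without vehicle replicate 1. The 10 µM difference of *Nab2* from vehicle, 0.31, did not pass (adjusted p = 0.236, edgeR). *Nr4a3* and *Nr4a2* differed from vehicle at 50 µM by 0.38 and 0.39 and did not pass.

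**Figure D5:**
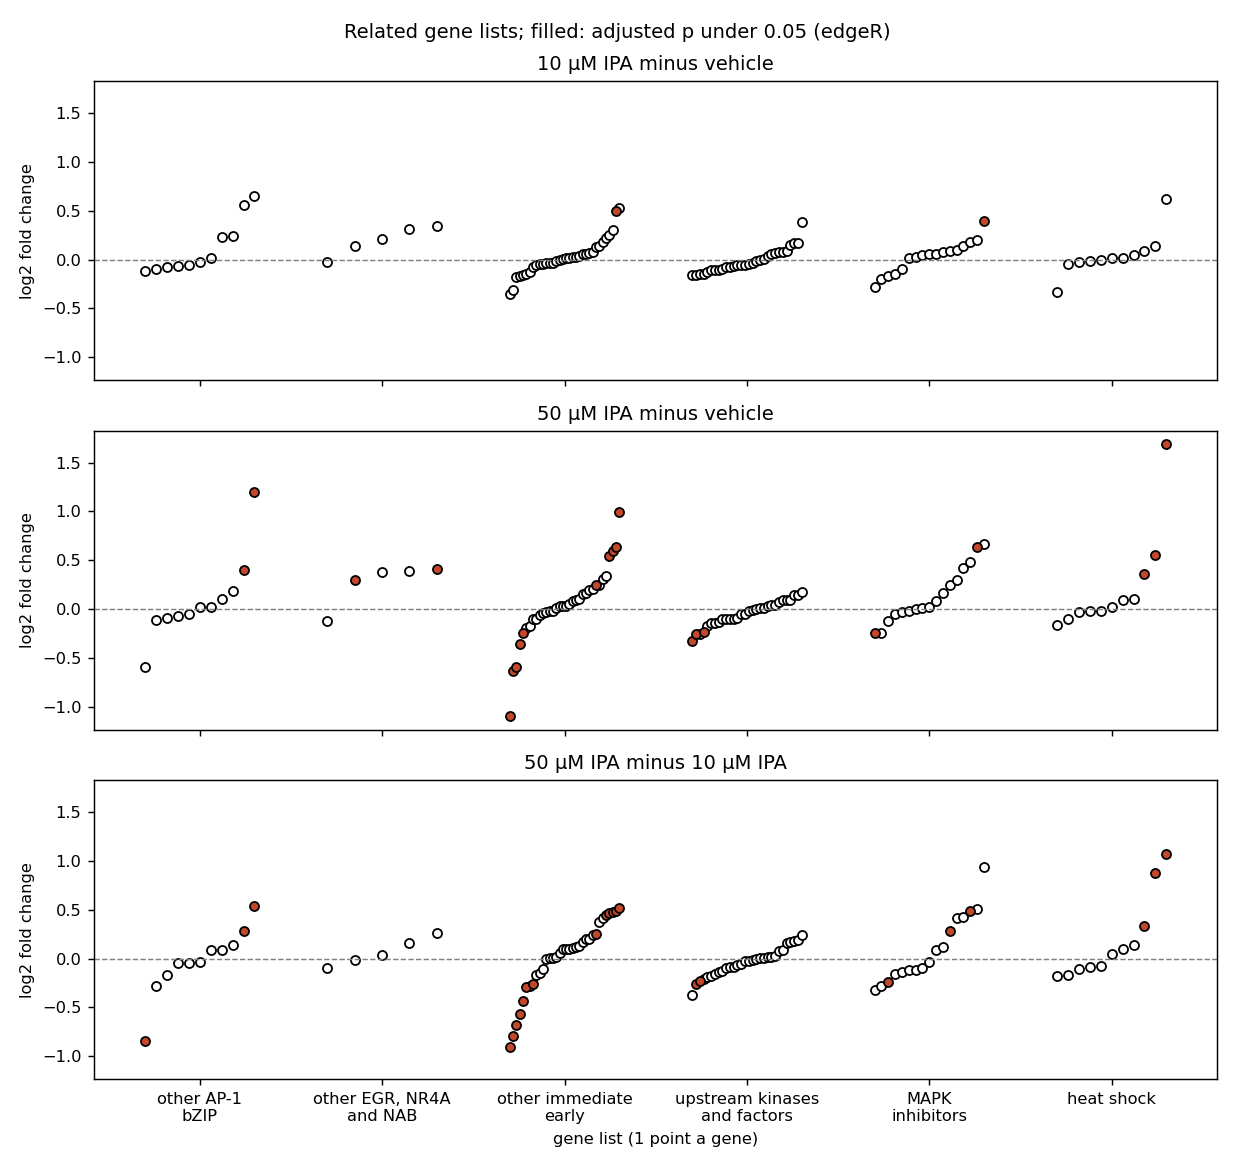
Log2 fold change (vertical axes) of each gene of 6 related lists (horizontal axis: other bZIP, other EGR, NR4A and NAB, other immediate early, upstream, MAPK inhibitors and heat shock genes, sorted within a list; the AP-1 targets are not plotted) in the 3 comparisons; filled points had an adjusted p under 0.05 in edgeR. Filled points lie on both sides of 0 among other immediate early genes at 50 µM, and 2 of the plotted points at 10 µM against vehicle are filled, *Sgk1* and *Dusp3*, neither of which passed without 10 µM replicate 2.

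Other immediate early genes moved both ways at 50 µM. Of 34 tested, 1 passed at 10 µM, 5 rose and 5 fell at 50 µM against vehicle, and 6 were higher and 7 lower at 50 µM than at 10 µM. Over all genes 0.410%, 13.5% and 15.4% passed in the 3 comparisons, and at 50 µM 7.00% passed and were higher than in vehicle. The list's medians were 0.01, 0.03 and 0.10. The genes that rose over vehicle were *Plk2* and *Plk3*, kinases induced by serum and stress, *Dusp5*, a nuclear ERK phosphatase, *Ppp1r15a*, encoding GADD34, and *Pim1*, a kinase gene downstream of STAT factors. *Plk2* led with 34.8 ± 6.66 CPM in vehicle, 50.0 ± 6.18 at 10 µM and 68.9 ± 3.82 at 50 µM (SD, n = 4), a rise of 1.00 (SE 0.12, adjusted p = 0.000168, edgeR). *Dusp5* rose by 0.63 (SE 0.08, adjusted p = 0.000173, edgeR).

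The genes that fell were *Ptgs2*, encoding the prostaglandin enzyme COX-2, *Socs3*, the feedback inhibitor of IL-6 signalling, *Klf4*, a monocyte factor, *Trib1* and *Dusp1*. *Ptgs2* stood at 11.7 ± 1.77 CPM in vehicle, 9.41 ± 1.15 at 10 µM and 5.41 ± 0.555 at 50 µM (SD, n = 4) and fell by 1.10 at 50 µM (SE 0.14, adjusted p = 0.000217, edgeR). *Socs3* fell by 0.64 (SE 0.07, adjusted p = 0.000103, edgeR). *Klf4* fell by 0.59 (SE 0.10, adjusted p = 0.00203, edgeR). The gene that passed at 10 µM was *Sgk1*, a serum- and glucocorticoid-induced kinase, with 55.3 ± 5.59 CPM in vehicle, 77.8 ± 7.06 at 10 µM and 52.5 ± 3.71 at 50 µM. It rose by 0.49 at 10 µM (SE 0.09, adjusted p = 0.0454, edgeR). That call held in 1 of the 8 fits without 1 library, and the adjusted p (edgeR) was at most 0.197, without 10 µM replicate 2. At 50 µM, *Dusp1* and *Pim1* held in 2 of 8 such fits and *Trib1* in 3, with adjusted p (edgeR) of at most 0.108, 0.114 and 0.0760, while the other 7 genes called against vehicle held in all 8.

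Genes that act on AP-1 through MAP kinases were read against the same shares of all genes, 0.410% at 10 µM, 13.5% at 50 µM and 15.4% between the doses. Of 30 kinases and transcription factors upstream, 0 passed at 10 µM in edgeR (4 at an unadjusted p under 0.05), 3 fell at 50 µM against vehicle (*Map2k4*, *Rps6ka1* and *Creb1*) and 2 at 50 µM against 10 µM (*Map2k1* and *Map2k4*), and none rose. The fall was 0.33 for *Map2k4*, a kinase of the JNK pathway, at 50 µM (SE 0.07, adjusted p = 0.00634, edgeR). Without 1 library it held in 8 of 8 fits, *Rps6ka1* in 5 and *Creb1* in 2, with adjusted p (edgeR) of at most 0.0270, 0.0733 and 0.102. Of 17 phosphatases and inhibitors of MAP kinases, *Dusp3* rose at 10 µM by 0.40 (SE 0.07, adjusted p = 0.0385, edgeR), a call that held in 1 of 8 fits without 1 library (adjusted p at most 0.182, without 10 µM replicate 2). At 50 µM against vehicle *Dusp5* rose and *Dusp1* fell. At 50 µM against 10 µM *Dusp5* and *Rasal3* were higher and *Dusp3* was lower. Without 1 library these held in 8, 6 and 3 of 8 fits, in that order. The adjusted p (edgeR) reached 0.0604 for *Rasal3* and 0.127 for *Dusp3*, both without 10 µM replicate 2. *Dusp1*, *Dusp2* and *Dusp5* stand in both this list and that of immediate early genes.

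Of 18 textbook AP-1 targets tested, 4 rose at 10 µM (*Mmp12*, *Ccl2*, *Spp1* and *Hmox1*), none fell and 14 did not pass, against 0.410% of all genes called. None of these 4 calls held without 10 µM replicate 2, where adjusted p (edgeR) was 0.155, 0.143, 0.143 and 0.197 in that order, and they held in 2, 3, 3 and 1 of the 8 fits without 1 library. At 50 µM against vehicle 8 rose and 2 fell, and at 50 µM against 10 µM 4 were higher and 6 lower, against 13.5% and 15.4% of all genes. The list was chosen with earlier results of these data known, so these counts are a description, and the list itself was not tested. The medians were 0.25, 0.34 and 0.00. *Ccl2*, a monocyte chemokine, stood at 44.2 ± 5.87, 73.5 ± 10.7 and 107 ± 15.7 CPM (SD, n = 4) and rose by 0.73 at 10 µM and by 1.28 at 50 µM (adjusted p = 0.0277 and 1.66e-05, edgeR). *Il1b*, encoding an inflammatory cytokine, fell by 0.87 at 50 µM (SE 0.12, adjusted p = 0.000448, edgeR). These genes have many regulators, and their link to AP-1 here was not tested.

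Heat shock genes, which can respond together with immediate early genes when cells are handled, changed in 3 of 11 cases at 50 µM and in 0 at 10 µM (edgeR; 1 at an unadjusted p under 0.05), against 13.5% and 0.410% of all genes. *Hspa1a*, *Hspa1b* and *Hspe1* were higher at 50 µM than in either other group (15.4% of all genes passed between the doses). Without 1 library, these calls against vehicle held in 8, 7 and 2 of 8 fits, in that order. Against 10 µM they held in 4, 8 and 3. The adjusted p (edgeR) of *Hspe1* against vehicle reached 0.117. *Hspa1a* and *Hspa1b* are near-identical and were low (9 to 56 and 60 to 144 counts per library), so that their split is uncertain. The list's summed level was 5690 to 6394 CPM in vehicle, 5989 to 6430 at 10 µM and 5945 to 6497 at 50 µM, and its part in the rise of *Egr1* and *Egr2* was not tested.

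Cell type markers also moved with the 50 µM group. The counts below stand beside 13.5% of all genes called at 50 µM against vehicle and 15.4% against 10 µM. The cultures carried neutrophil markers at a summed level of 24204 to 33493 CPM in vehicle, 22590 to 25762 at 10 µM and 17780 to 23935 at 50 µM, and 8 of 14 fell at 50 µM against vehicle, with 7 of 14 lower against 10 µM. B cell markers were low but rose in 6 of 8 cases against vehicle, and 5 of 8 were higher against 10 µM. Their summed level went from 52.7 to 70.5 CPM in vehicle and 68.1 to 87.4 at 10 µM to 88.1 to 130 at 50 µM, with none of the 8 at 0 in all libraries and *Vpreb3* at 0 in at least 1 vehicle library. Monocyte markers fell in 3 of 6 cases against vehicle and in 5 of 6 against 10 µM, and their summed level was 2687 to 3423, 3837 to 4923 and 2417 to 3120 CPM. Among 12 macrophage markers, 2 rose and 3 fell at 50 µM against vehicle, and 1 was higher and 8 lower against 10 µM, with summed levels of 1905 to 2114, 2159 to 2457 and 1914 to 2061 CPM. The part of any of these in the changes of *Egr1*, *Egr2*, *Nr4a1* and *Junb* was not tested.

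Markers of other cell types were followed in the same way. Of 10 dendritic cell markers, 2 rose and 3 fell at 50 µM against vehicle, and 1 was higher and 4 lower against 10 µM, with summed levels of 4727 to 5719, 5003 to 5833 and 4204 to 4937 CPM. Without 1 library, of the calls against vehicle *H2-Ab1* held in 8 of 8 fits and *Ccr7* in 6. *Zbtb46*, *H2-Aa* and *H2-Eb1* held in 3 each. Against 10 µM *Cd74* held in 3, and *Ccr7*, *H2-Aa*, *H2-Ab1* and *H2-Eb1* held in all 8. Of 7 mast cell and basophil markers tested, *Gata2* rose and *Kit* fell against vehicle, *Gata2* and *Prss34* were higher and none lower against 10 µM, and the 9 listed summed to 368 to 441, 298 to 403 and 400 to 502 CPM, with 1 marker at 0 in every library. *Ccr3* was higher in both 50 µM comparisons among 5 eosinophil markers (848 to 1251 CPM without IPA or at 10 µM, 796 to 1071 at 50 µM), and *Lepr* fell among 6 stromal markers tested. *Lepr* and *Pecam1* were lower against 10 µM, and the 8 listed stromal markers summed to 51.1 to 86.0 CPM over the 12 libraries. T and NK cell markers summed to 2.57 to 6.06 CPM and erythroid markers to 0.629 to 1.52 CPM over the 12 libraries, and none of the 4 and 1 tested passed in edgeR, also at an unadjusted p under 0.05.

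The genes whose pattern over the 12 libraries was most like that of a member were found by the root mean square difference of standardized log2 CPM, as a description. A value of 0 means the same pattern. For *Egr2* they were *Aldh1a2* (0.208), *Hic1* (0.212) and *Stk39* (0.247), beside a median of 1.33 over all other genes. For *Egr1* they were *Cish* (0.298), *Zfp523* (0.318) and *Clec2i* (0.326), with a median of 1.34. For *Junb* they were *Il13ra1* (0.301), *Ly6a* (0.314) and *Ccr2* (0.316), with a median of 1.36, and for *Nr4a1* they were *Zfp810* (0.378), *Cyp26a1* (0.398) and *Clcf1* (0.404), with a median of 1.35.

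The same measure was taken between members. *Egr1* was the 19th nearest of 14893 genes to *Nr4a1* (difference 0.483), and *Nr4a1* was the 98th nearest to *Egr1*. *Egr1* was the 250th nearest to *Ier2* (0.759), and *Nr4a1* the 772nd (0.878). *Egr2* was the 1474th nearest to *Egr1* (0.817), although both rose at 50 µM. *Junb* was the 224th nearest to *Jun* (0.768), and *Fosl2* the 986th (0.966). The farthest pair was *Egr1* and *Junb* (1.80).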

How the data were processed

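RNA from 12 libraries (4 per group) was prepared with a stranded mRNA kit. According to the study's methods and the labels, the authors removed adapters and poor bases (Atropos), mapped reads to the mm10 genome by HISAT2 (2.2.1) and assigned them to genes with featureCounts (2.0.1) on an Ensembl GRCm38 annotation. The deposited values are raw counts; whether counting used strand is not given in the sources used here. The title of 1 library at 10 µM repeats that of another, and its library name was used. Media were changed at day 3 per the labels, and on a more frequent schedule in the study's methods. The 14894 genes above 0.5 CPM in 2 or more libraries were tested with edgeR (4.0.16, R 4.3.3), TMM and the quasi-likelihood test, two-sided, on the 8 libraries of each pair, with Benjamini-Hochberg adjustment. DESeq2 (1.42.0), limma-voom (limma 3.58.1), other filters, a joint fit, a replicate block and fits without each library were alternatives. All 10 members were named, then listed genes with an adjusted p under 0.05 (at most 12 per list) and the 3 nearest patterns of each member that passed. Members and lists were chosen with earlier results of these data known. Exon lengths and overlaps are from GENCODE vM21 and promoters from RefSeq. No library was a copy of another. In data simulated for 10 µM against vehicle (14894 genes, 200 changed), the test found 90 changes of 0.5 and 157 of 1 on the log2 scale, with 2 and 4 false calls. Depth was 20451312 to 28038612 counts per library, which limits the genes with few counts.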

Additional observations from a re-analysis of the deposited data

How the results depend on the processing

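Of 450 values of single members under alternatives, 414 kept their direction and side of the threshold, 15 lost a call, 8 gained one and 13 changed sign. *Egr1* and *Egr2* passed in both 50 µM comparisons in all 8 fits without 1 library and in the 7 other alternatives. For 50 µM against 10 µM, *Junb* lost its call without a filter on low counts (adjusted p = 0.0927, edgeR), *Nr4a1* lost it with all 12 libraries in 1 fit (adjusted p = 0.0577, edgeR), and *Jun* passed without a filter (adjusted p = 0.0428, edgeR). Signs changed where differences were near 0. For 50 µM against 10 µM, *Fos* was -0.0033 with limma-voom, -0.0011 with all 12 libraries in 1 fit and -0.034 to 0.041 without 1 library, and *Fosb* was -0.226 to 0.291. Without 1 library, *Nr4a1* was -0.201 to 0.019 at 10 µM and *Jun* -0.056 to 0.030 at 50 µM, both against vehicle. The causes were not tested.

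The number of all genes called at 10 µM against vehicle (61) was 250 with DESeq2, 150 without a filter, 118 with all 12 libraries in 1 fit and 4 to 122 without 1 library (lowest without 10 µM replicate 2, highest without vehicle replicate 4). At 50 µM against vehicle (2010) it was 1247 to 2689 without 1 library. Members called at 50 µM against 10 µM (4) were 2 to 4 without 1 library and 3 to 5 under the other alternatives, and those that differed among the 3 groups (2) were 4 with DESeq2's likelihood ratio test and 2 to 4 without 1 library. Replicate numbers did not pair the samples: deviations of same-numbered libraries correlated at -0.24 to 0.14, and not every library correlated best with its own number. With the replicate block, 3 genes were called at 10 µM, 4 members differed among the 3 groups, *Junb* lost its call (adjusted p = 0.0655, edgeR) and *Jun* gained one (adjusted p = 0.0404, edgeR) at 50 µM against 10 µM. Leaving out libraries was also applied to the genes of the 7 related lists and of the marker lists, a check chosen after seeing the data. Of the genes called in the 7 related lists, 0 of 6 at 10 µM against vehicle passed in all 8 fits. None of these 6 passed with the replicate block. At 50 µM, 17 of 30 against vehicle and 23 of 33 against 10 µM passed in all 8 fits.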
